A study of Mus musculus with 4 samples.

Results

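Granins and the enzymes that process prohormones are the cargo and the toolkit of dense-core vesicles, and 10 of their genes were followed here in engineered neural tissue of the mouse. The genes were picked by symbol from the 23874 genes of a count table: the granins Scg2, Scg3, Chga, Chgb and Vgf, the convertase partner genes Scg5 and Pcsk1n, the convertases Pcsk1 and Pcsk2, and the carboxypeptidase gene Cpe. All 10 were found, and the set was proposed with results of the group comparison already known, so differences between the groups are given as a description. The tissue came from neurospheres, clusters of neural stem and progenitor cells, set in Matrigel (a basement membrane gel) under medium with 20 ng/ml human basic fibroblast growth factor. The EF group was stimulated at 150 mV/mm, in daily sessions of 30 min over 3 days, with 7 further days of culture, and the noEF group was cultured without stimulation. Both groups are given as the same kind of gel tissue in the sample labels, while the series design speaks of suspended neural stem cells as control, and the sample labels were followed. Each group had 2 libraries here, of the 3 replicates per group that the labels state. No label says that the libraries came from separate cultures, so p-values reflect sample-to-sample spread that may be purely technical.

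Dense-core vesicles carry neuropeptides, hormones and growth factors to the cell surface and release them when calcium rises. Granins are acidic proteins that aggregate in the trans-Golgi network and help load this cargo into the forming vesicle. Inside it, the convertases PC1/3 (Pcsk1) and PC2 (Pcsk2) cut precursors after pairs of basic residues, and carboxypeptidase E (Cpe) trims the exposed basic residues. In the nervous system the pathway is best known from neurons, and glia are also known to express some of its genes, Cpe and Scg3 among them.

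Total counts per library ran from 33748880 to 34554537, and 15548 to 15723 genes had at least 1 count. The labels call the cells neural stem cells, and markers of stem and progenitor cells were present. Sox2 ranged from 291 to 380 CPM (counts scaled to the TMM-adjusted library size), Nes from 115 to 135 CPM and Fabp7 from 2281 to 3552 CPM. Astrocyte markers were present as well, at a summed 8179 to 9526 CPM for 10 genes. Of 14 neuron markers Stmn2 had 0 counts in every library. Of the 13 tested 0 were called by edgeR (adjusted), DESeq2 or limma-voom, but DESeq2 gave Nefm no adjusted p. At an unadjusted edgeR p under 0.05, 1 was higher and 4 were lower. Of all tested genes 11.3% and 12.5% passed this threshold as higher and lower (23.8% in all). Of 5 microglia markers 4 had 0 counts throughout, as did 8 of 9 markers of pituitary and adrenal endocrine cells, the classical granin-rich cell types. Of the 4 vascular and 2 ependymal markers tested edgeR called 0, with 1 lower in each list (Pdgfrb and Foxj1) at an unadjusted p under 0.05. Pecam1, Rgs5 and Aqp1 stayed at or below 1.04 CPM in every library. Pdgfrb was called by limma-voom, from at most 0.386 CPM, and DESeq2 gave it no adjusted p. P2ry12, the microglia marker with counts, and Pomc, the endocrine one, were not called. With bulk RNA, fewer cells of a type and less RNA per cell cannot be told apart.

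Levels between genes were compared as RPKM, which is CPM divided by the exon length in kilobases. Cpe stood far above the others, with 1049 and 1112 RPKM in EF and 1593 and 1707 RPKM in noEF. By its mean it ranked 23 from the top among the tested genes, and it made up 92.6% to 94.2% of the summed RPKM of the 10 genes in a library. The next genes were Scg3, a granin that binds cholesterol-rich membrane and retains other granins in the vesicle, at 40.9 to 58.8 RPKM, and Pcsk1n, which encodes the PC1/3 inhibitor proSAAS, at 23.0 to 46.2 RPKM. Their ranges over the 4 libraries overlapped.

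A second tier lay roughly an order of magnitude lower. Scg2 spanned 2.48 to 6.35 RPKM, Chgb 2.21 to 2.53, Vgf 1.68 to 2.96 and Scg5 1.80 to 2.78, and these 4 ranges overlapped one another. The order within this tier was not the same in both groups: Scg2 led in EF with a mean of 5.69 ± 0.928 RPKM (SD, n = 2), while in noEF Vgf had 2.87 ± 0.117 and Scg2 2.51 ± 0.0438 RPKM (SD, n = 2 each). Chga lay below them at 0.744 to 1.21 RPKM, with no overlap. Pcsk2 was at 0.0833 to 0.101 RPKM, from 23 to 27 counts per library. Pcsk1 had 0 counts in all 4 libraries, which allows at most 0.0840 to 0.0922 CPM per library (the level of 3 counts, for counting error only).

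**Figure D1:**
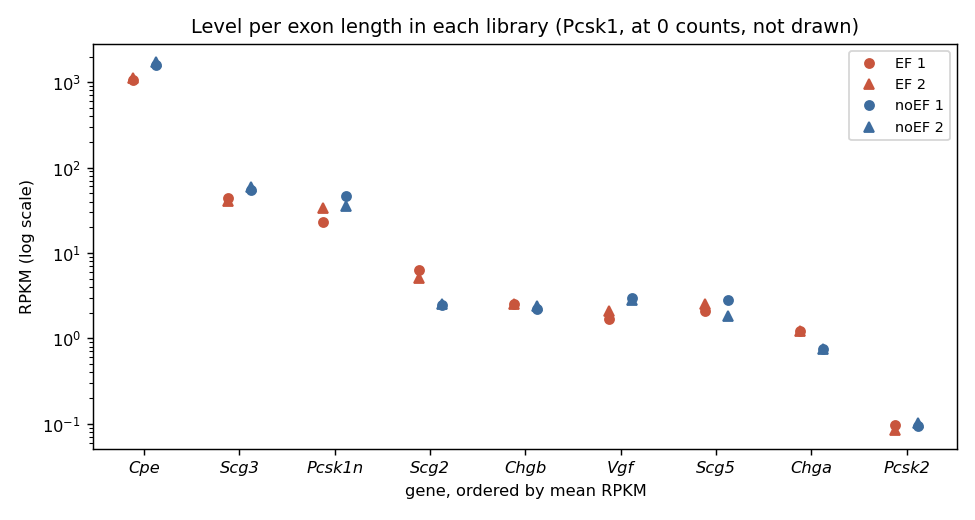
RPKM on a log axis for the 9 genes with counts, ordered by mean, with 1 point per library (red EF, blue noEF; circles replicate 1, triangles replicate 2). Cpe sits at 1049 RPKM or above in every library, Scg3 and Pcsk1n between 23.0 and 58.8, and the remaining granins at or below 6.35.

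The group comparison asks which transcripts differ 7 days after the last stimulation. In edgeR's quasi-likelihood fit, adjusted by Benjamini-Hochberg over 14263 genes, 1 of the 9 tested members was higher in EF (Scg2) and 2 were lower (Cpe and Scg3). Across all tested genes 8.82% were called, 3.83% as higher and 4.99% as lower. Higher genes made up 43.4% of all calls, and 69.3% where libraries were scaled by their totals alone, which left the calls of the members the same. The other 6 tested members were not called, and Pcsk1 was not tested. Both EF libraries lay above both noEF libraries for 3 members and below them for 4, where 27.6% and 26.8% of all tested genes did so (54.4% in all). The median log2 fold change of the 9 was -0.12, against 0.01 over all tested genes. Since the set was chosen with this comparison in view, nothing is read from these counts.

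**Figure D2:**
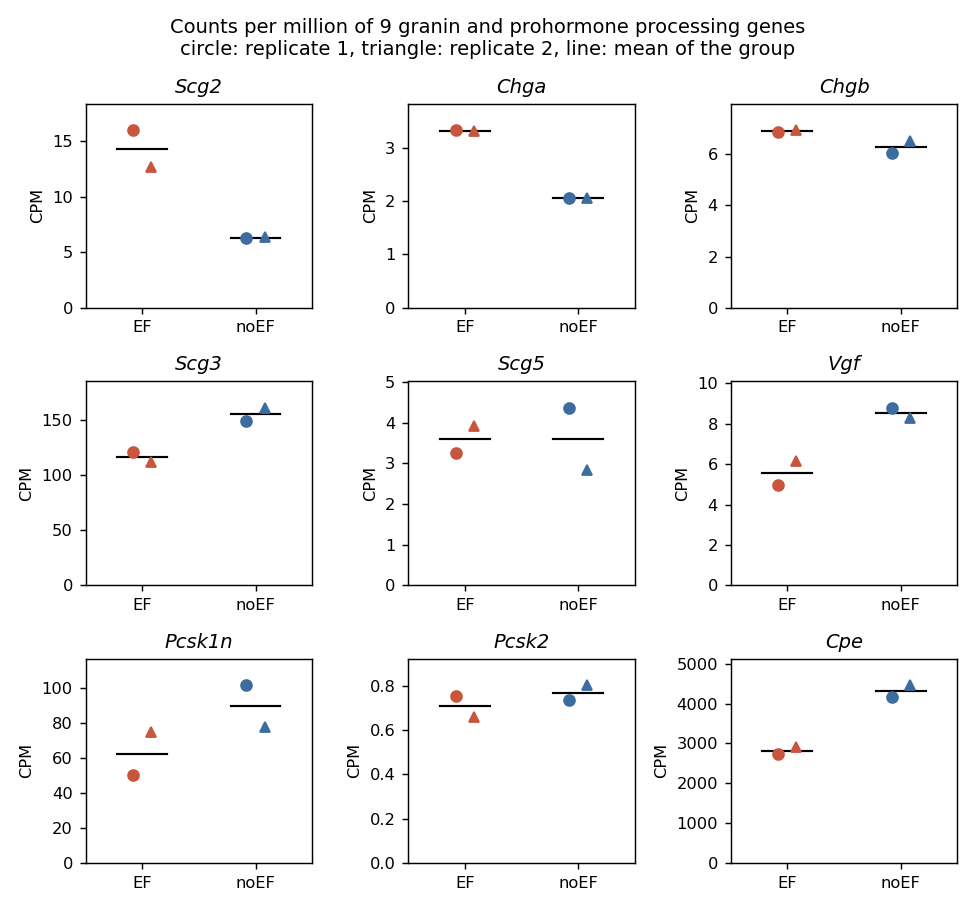
CPM in each library for 9 genes, 1 panel per gene with its own axis from 0 (red EF, blue noEF; circle replicate 1, triangle replicate 2; line, mean of 2 libraries). Scg2, Chga and Chgb have both EF points above the noEF points, Scg3, Vgf, Pcsk1n and Cpe have both below, and the points of Scg5 and Pcsk2 overlap.

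Scg2 encodes secretogranin II, the precursor of the peptide secretoneurin (ENSMUSG00000050711, GRCm38 chromosome 1, 79434669 to 79440120, minus strand). It had 16.0 and 12.7 CPM in the EF libraries and 6.24 and 6.39 CPM in the noEF libraries. The noEF libraries were nearly equal, the EF libraries differed 1.26-fold between themselves, and the lower of them was still well above both noEF values. Scg2 rose 2.27-fold, or 1.18 on the log2 scale (SE 0.20, edgeR adjusted p = 0.00197). It kept this call in all 12 alternative settings, with log2 fold changes from 1.00 to 1.34.

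Chga and Chgb encode chromogranins A and B, widely used markers of neuroendocrine vesicles. Chga (ENSMUSG00000021194, chromosome 12, 102554969 to 102565028) had 3.33 and 3.32 CPM in EF and 2.06 and 2.05 CPM in noEF, so the replicates of each group were almost equal. These values rest on 116 to 119 and 67 to 69 counts. Chga was not called: its log2 fold change was 0.69 (SE 0.36, edgeR adjusted p = 0.264), with a 95% interval from -0.08 to 1.47. The SE is larger than the closeness of the replicates would give because edgeR shares the estimate of spread between genes of similar abundance. Chgb (ENSMUSG00000027350, chromosome 2, 132781278 to 132795079) had 6.86 and 6.93 CPM in EF and 6.05 and 6.51 CPM in noEF. Its EF libraries were both the higher ones, by little, and its log2 fold change was 0.13 with a 95% interval from -0.35 to 0.62 (edgeR adjusted p = 0.780).

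Scg2 and Chga are textbook targets of CREB, the factor that binds the cAMP response element TGACGTCA, so the promoters were searched for it. The RefSeq promoter table (GRCm38.p6, 250 bases before to 50 after a start) matched 8 of the 10 members, Vgf and Cpe being the others. Searched on both strands, TGACGTCA, which is its own reverse complement, was in the promoters of Scg2, Chgb and Pcsk1, 3 of these 8, and in 1.79% of all 32851 promoters. Its first 6 bases, TGACGT, which every full element also contains, were in 5 of the 8 (Chga and Scg5 in addition) and in 7.51% of all promoters. The 30 bases around the match before the start are shown for these 5, 5′ to 3′ on the strand of the gene, with the match in capitals, because the elements can be compared base by base.
Scg2: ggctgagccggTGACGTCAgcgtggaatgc
Chgb: gggctgctccgTGACGTCAgggctgagcga
Pcsk1: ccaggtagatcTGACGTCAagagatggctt
Chga: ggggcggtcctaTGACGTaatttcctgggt
Scg5: aaaggaggtaaaTGACGTtcataggggtcg
The match begins 68 bases before the RefSeq start in Scg2 (chromosome 1, 79440076 to 79440105), 72 in Chgb (chromosome 2, 132781559 to 132781588), 78 in Pcsk1 (chromosome 13, 75089768 to 75089797), 44 in Chga (chromosome 12, 102554885 to 102554914) and 175 in Scg5 (chromosome 2, 113829249 to 113829278). In Scg2 and Chgb these bases also lie in an exon of a GENCODE transcript that starts farther upstream. Of the genes with the full element, Scg2 was higher in EF and Chgb was not called. Pcsk1 was not tested. Scg3, Pcsk1n and Pcsk2 had no TGACGT in this window. The shorter run TGACG, on either strand, was in 7 of the 8, Scg3 and Pcsk2 among them, and in 20.8% of all promoters. A match is a run of letters and says nothing of binding. The element was chosen with known CREB targets among the members, so nothing is read from these shares.

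Vgf encodes a granin-like precursor whose transcription is known to follow neurotrophins and activity (ENSMUSG00000037428, chromosome 5, 137026392 to 137033351). It had 4.98 and 6.13 CPM in EF and 8.79 and 8.29 CPM in noEF. Both EF libraries were below both noEF libraries, with a log2 fold change of -0.62 (SE 0.23) and a 95% interval from -1.10 to -0.14. After adjustment over all genes it was not called (edgeR adjusted p = 0.103), and it was called in 0 of 12 alternative settings, where the adjusted p ran from 0.0694 to 0.462. Scg2 and Vgf therefore stood in opposite order in the groups: the ratio of their RPKM was 3.79 and 2.44 in EF and 0.839 and 0.911 in noEF.

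Scg3 encodes secretogranin III (ENSMUSG00000032181, chromosome 9, 75643189 to 75684056). It had 121 and 112 CPM in EF and 149 and 161 CPM in noEF. All EF values were below all noEF values, and Scg3 fell 1.33-fold, or -0.42 on the log2 scale (SE 0.09, edgeR adjusted p = 0.0093). The call was lost without EF 2, where the log2 fold change was -0.36 (edgeR adjusted p = 0.0607). Because Scg2 rose and Scg3 fell, Scg2 amounted to 14.4% and 12.3% of the Scg3 RPKM in EF, against 4.54% and 4.32% in noEF.

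Cpe (ENSMUSG00000037852, chromosome 8, 64592542 to 64693054) fell with the smallest adjusted p of the set. It had 2737 and 2901 CPM in EF and 4157 and 4455 CPM in noEF. Replicates of a group were close to each other, and every EF value was well below every noEF value. Cpe fell 1.53-fold, or -0.61 on the log2 scale (SE 0.08, edgeR adjusted p = 0.000281). Cpe took 0.283% and 0.298% of all counts in the EF libraries and 0.401% and 0.435% in the noEF libraries. It was called lower in all 12 alternative settings, with log2 fold changes from -0.66 to -0.52.

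Cpe and Scg3 are not restricted to neurons, and markers of other cells moved beside them. Of 10 astrocyte markers 5 were lower in EF and 0 higher. Of all tested genes 4.99% were called lower and 3.83% higher, shares that also stand beside the list counts below. Gfap, the astrocyte filament, had 237 and 241 CPM in EF and 640 and 671 CPM in noEF, and the gap junction gene Gja1 and the glycolytic gene Aldoc had log2 fold changes of -0.62 and -0.54 (edgeR adjusted p = 0.000278 and 0.000771). Aqp4 and Atp1b2 were the other two called lower, and the log2 fold changes of all 10 were above 0 for 3 and below 0 for 7. Slc1a3, a glutamate transporter gene and the most abundant of the 10, had 2991 and 2732 CPM in EF and 2483 and 2637 CPM in noEF (log2 fold change 0.16, edgeR adjusted p = 0.248), both EF libraries above both noEF libraries without a call. The summed level of the 10 was 8198 and 8179 CPM in EF and 9145 and 9526 CPM in noEF. Of 10 stem and progenitor markers edgeR called 4 lower (Fabp7, Sox9, Hopx and Sox1) and 0 higher. Both EF libraries lay above both noEF libraries for 2 of these 10 and below them for 7, where 27.6% and 26.8% of all tested genes did so. By DESeq2 6 were lower, where 807 of all 11724 genes with an adjusted p were. By limma-voom 4 were lower, where 739 of all 14263 tested genes were. At an unadjusted edgeR p under 0.05, 6 were lower, where 12.5% of all tested genes were. Sox9 lost the call without EF 1 (edgeR adjusted p = 0.0504) and Hopx without noEF 1 (edgeR adjusted p = 0.0716). The 10 had a summed 5531 and 5842 CPM in EF against 7332 and 6980 CPM in noEF. The part of these cell types in the falls of Cpe and Scg3 was not tested. Of 8 oligodendrocyte lineage markers 2 were lower (Gpr17 at -0.89 and Pdgfra at -0.52) and 0 higher. Gpr17 lost the call without EF 2 and without noEF 2 (edgeR adjusted p = 0.0531 and 0.101), and Pdgfra lost it without EF 1, without noEF 2 and with scaling by library totals (edgeR adjusted p = 0.258, 0.187 and 0.0647). The summed level was 2456 and 2803 CPM in EF and 2577 and 2426 CPM in noEF. The neuron markers summed to 775 and 748 CPM in EF and 666 and 733 CPM in noEF. Ina, Syt1 and Nefm, the 3 with the smallest p, had log2 fold changes of -0.66, -0.48 and -1.78 and were not called (edgeR adjusted p = 0.0501, 0.0631 and 0.102). Both EF libraries lay above both noEF libraries for 5 of the 13 tested neuron markers and below them for 5. Of all tested genes 27.6% lay above and 26.8% below in this way (54.4% in all). Among the 5 neuron markers above, Map2 had a log2 fold change of 0.20 and Elavl4 of 0.34, without a call (edgeR adjusted p = 0.189 and 0.274).

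The convertases were near the limit of detection. Pcsk2 (ENSMUSG00000027419, chromosome 2, 143546156 to 143816285) had 0.756 and 0.659 CPM in EF and 0.737 and 0.803 CPM in noEF. The groups overlapped, and at this depth the 95% interval of its log2 fold change ran from -1.71 to 1.46, so neither a sizeable rise nor a sizeable fall could be detected. Antisense genes overlap 3.29% and 1.25% of its exon bases, and the strand setting of the counting is not known.

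The binding partners of the convertases were not called either. Scg5, which encodes 7B2, the chaperone of PC2 (ENSMUSG00000023236, chromosome 2, 113776362 to 113829121), had 3.25 and 3.92 CPM in EF and 4.36 and 2.82 CPM in noEF. The noEF libraries, 1.54-fold apart, enclosed the EF values, and the log2 fold change was -0.0022 with a 95% interval from -0.71 to 0.71. Pcsk1n (ENSMUSG00000039278, chromosome X, 7919822 to 7924410) had 50.4 and 74.4 CPM in EF and 101 and 77.8 CPM in noEF. The groups did not overlap, but EF 2 lay next to noEF 2, while EF 1 and noEF 1 stood apart. Its log2 fold change was -0.52 (SE 0.26, edgeR adjusted p = 0.358). The robust fit gave it 3.55 residual degrees of freedom where the other tested members had 14.99, which widened its 95% interval to -1.29 to 0.25. Pcsk1n was called lower in 3 of 12 alternative settings: without EF 2 (-0.83, edgeR adjusted p = 0.0024), with DESeq2 (-0.52, adjusted p = 0.0316) and with no filter on low counts (-0.52, edgeR adjusted p = 0.00105). It was smaller without EF 1 (-0.27, edgeR adjusted p = 0.412) and without noEF 1 (-0.32, edgeR adjusted p = 0.539). Exons of Eras on the opposite strand overlap 6.16% of its exon bases.

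**Figure D3:**
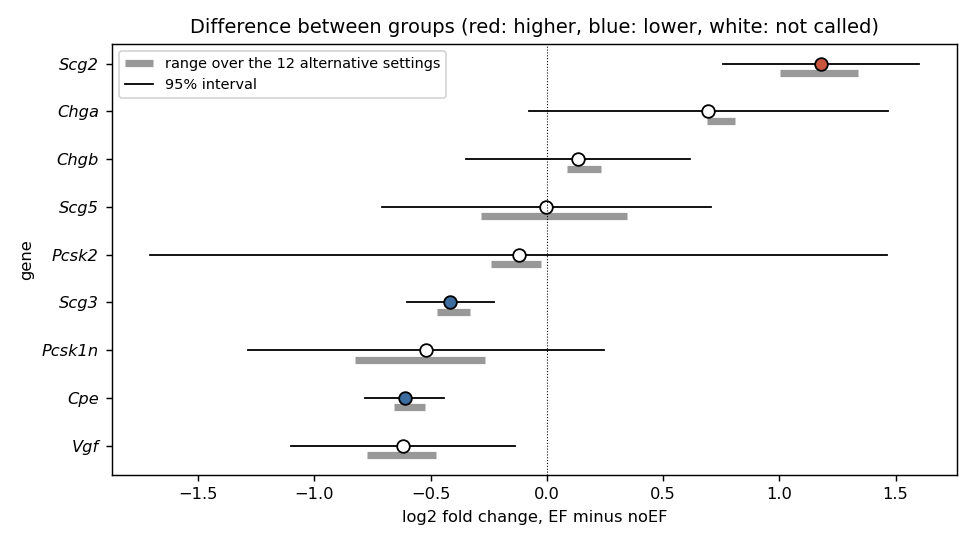
Log2 fold change (EF minus noEF) of the 9 tested genes with its 95% interval (thin line) and, below it, the range over 12 alternative settings (grey bar); red is called higher, blue called lower, white not called. Scg2 at 1.18 lies at 1 end and Vgf at -0.62 and Cpe at -0.61 at the other, and the interval is widest for Pcsk2.

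Other enzymes that cut and finish precursors were measured more deeply than Pcsk1 and Pcsk2. The convertases of the constitutive pathway were present, Pcsk6 at a mean of 5.76 RPKM over the 4 libraries, Pcsk7 at 4.62 and Furin at 2.07. Of 19 such genes, all tested, 1 was higher and 1 lower in EF, with a median log2 fold change of 0.18. At an unadjusted edgeR p under 0.05, 4 were higher and 1 lower, where 11.3% and 12.5% of all tested genes were. Both EF libraries lay above both noEF libraries for 9 and below them for 2, where 27.6% and 26.8% of all tested genes did so. Tpst1, which sulfates tyrosines of secreted proteins, had 30.3 and 30.4 CPM in EF and 22.5 and 21.3 CPM in noEF (log2 fold change 0.47, SE 0.13, edgeR adjusted p = 0.04). It missed the threshold when any 1 library was left out (edgeR adjusted p = 0.0732 to 0.174) and with DESeq2 (adjusted p = 0.0521). Ctsl, a cathepsin that also cuts prohormones, had 194 and 196 CPM in EF and 251 and 233 CPM in noEF (log2 fold change -0.31, SE 0.08, edgeR adjusted p = 0.0309). It lost the call without EF 1, without EF 2 and without noEF 1 (edgeR adjusted p = 0.172, 0.0989 and 0.171), and with scaling by library totals (-0.23, edgeR adjusted p = 0.0963). Exons of Gm47123 on the opposite strand overlap 26.85% of the exon bases of Ctsl, and exons of Gm49230 on the same strand 6.09%. Pam, which amidates peptides at their end, had 120 and 101 CPM in EF and 83.4 and 92.9 CPM in noEF and was not called (edgeR adjusted p = 0.0602). It was called higher in 5 of 12 alternative settings: with library totals, no filter, the filter of 1 CPM, without EF 2 and without noEF 2 (edgeR adjusted p = 0.0168, 0.00919, 0.0479, 0.0262 and 0.0132).

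Of 29 genes for the formation, transport and release of dense-core vesicles 26 were tested, with 0 higher, 1 lower and a median log2 fold change of -0.08 by edgeR. DESeq2 and limma-voom gave the same counts, and at an unadjusted edgeR p under 0.05 4 were higher and 7 lower, of 26 tested, where 11.3% and 12.5% of all tested genes were. The called gene was Ptprn, which encodes the vesicle membrane protein IA-2. It had 9.02 and 11.3 CPM in EF and 15.5 and 17.6 CPM in noEF (log2 fold change -0.71, SE 0.18, edgeR adjusted p = 0.0264), and the call was lost without EF 1 (edgeR adjusted p = 0.177) and without noEF 2 (edgeR adjusted p = 0.0636). Its paralog Ptprn2 had 2.35 and 3.61 CPM in EF and 0.983 and 1.46 CPM in noEF, a log2 fold change of 1.29 that was not called (edgeR adjusted p = 0.0884). The vesicle GTPase gene Rab3d and the priming factor gene Cadps had log2 fold changes of -0.85 and -0.54 and were not called (edgeR adjusted p = 0.0758 and 0.0821). Rab3d was at -0.49 without EF 1 and, as a call, at -1.31 without EF 2 (edgeR adjusted p = 0.466 and 0.0102). It was also called with the replicate number as a block (-0.89, edgeR adjusted p = 0.0383) and with no filter on low counts (-0.85, edgeR adjusted p = 0.0119). Cadps was called without noEF 2, with no filter and with length and GC trends removed (edgeR adjusted p = 0.033, 0.0421 and 0.0337).

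Transcripts of peptide cargo were scarce. Of 40 precursor genes 39 were in the table, 15 had 0 counts in every library and 8 were tested. By edgeR, DESeq2 and limma-voom 0 were higher and 1 lower, with the same counts at an unadjusted edgeR p under 0.05. DESeq2 gave Trh, Tac1 and Pomc no adjusted p, so it could not call them. Nmb, the neuromedin B precursor, had 4.26 and 4.01 CPM in EF and 8.63 and 8.95 CPM in noEF. It fell 2.13-fold (log2 fold change -1.09, SE 0.23, edgeR adjusted p = 0.00938). Exons of Sec11a on the same strand overlap 20.6% of its exon bases, and after removal of length and GC trends it missed the threshold (log2 fold change -0.70, SE 0.24, edgeR adjusted p = 0.0853). Adm, the adrenomedullin precursor, was the other precursor above 1 CPM, at 13.1 to 14.8 CPM, and was not called. Trh, the thyrotropin-releasing hormone precursor, had 0.140 and 0.172 CPM in EF and 0.399 and 0.773 CPM in noEF and was not called (edgeR adjusted p = 0.293). Tac1, the substance P precursor, had 0 and 0.573 CPM in EF and 0.430 and 0.773 CPM in noEF. The groups overlapped, and its log2 fold change of -1.07 (edgeR adjusted p = 0.658) rests on EF 1, since it was -0.07 without that library.

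Among 15 regulators and activity-linked genes 13 were tested, with 1 higher and 0 lower by edgeR and limma-voom, 1 higher and 1 lower by DESeq2, and 2 higher and 1 lower at an unadjusted edgeR p under 0.05. Nptx2, a secreted pentraxin induced by activity, had 17.8 and 14.2 CPM in EF and 5.99 and 5.62 CPM in noEF (log2 fold change 1.46, SE 0.20, edgeR adjusted p = 3.54e-04). Rest, the repressor that keeps neuronal and granin genes silent in other cells, had 19.1 and 21.1 CPM in EF and 18.5 and 18.6 CPM in noEF and was not called (edgeR adjusted p = 0.694). Its corepressor gene Rcor1 and Fos had log2 fold changes of 0.35 and -0.23 and were not called (edgeR adjusted p = 0.196 and 0.0798). Fos was called lower with DESeq2 (-0.23, adjusted p = 0.0266) and with no filter on low counts (-0.23, edgeR adjusted p = 0.0496). Egr1, Nr4a1 and Arc, also activity-linked, had log2 fold changes of -0.19, -0.11 and -0.15, without a call. Of the 13 tested genes, both EF libraries lay above both noEF libraries for 6 and below them for 3. Of all tested genes 27.6% and 26.8% did so.

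**Figure D4:**
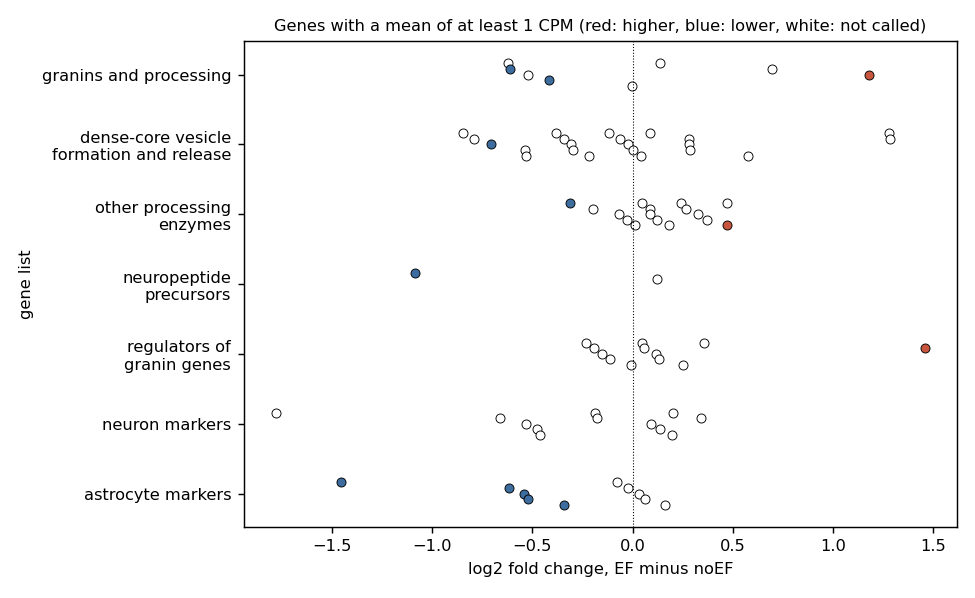
Log2 fold change (EF minus noEF, horizontal axis) of genes with a mean of at least 1 CPM in the granin set and 6 other lists, 1 point per gene (red called higher, blue called lower, white not called; vertical offsets within a list only separate points). Called are 1 of 22 genes drawn for vesicle formation and release, 2 of 16 processing enzymes, 1 of 2 precursors, 1 of 12 regulators, 0 of 12 neuron markers and 5 of 10 astrocyte markers. Of all tested genes 8.82% were called.

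Scg2 was also compared with every tested gene of at least 1 CPM by the distance between log2 CPM profiles centred over the 4 libraries. Of 12702 candidates the 5 nearest were Car14, Ogn, Thbs1, Rarb and Armh4, at distances of 0.0641 to 0.129. Thbs1, the matrix protein thrombospondin 1, had 19.7 and 14.8 CPM in EF and 7.86 and 8.15 CPM in noEF. Car14, a carbonic anhydrase, had 2.46 and 1.95 CPM in EF and 0.983 and 0.951 CPM in noEF. The distance rests on 4 libraries in 2 groups and is given as a description.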

How the data were processed

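RNA sequencing of polyadenylated RNA gave whole-number counts per gene, which the authors deposited unscaled in 1 table, to judge by its values. Per the submitters' processing notes the build was GRCm38 and the tools included DESeq2 1.44.0, HISAT2 2.0.4 and StringTie 2.2.1, with no role stated. How reads were counted, and whether by strand, is not given in the sources used here. Library names in the labels tied columns to samples.

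Counts were tested with edgeR 4.0.16 in R 4.3.3: filterByExpr (minimum count 10, minimum total 15), TMM scaling, robust quasi-likelihood F test of EF against noEF, Benjamini-Hochberg adjustment over all tested genes, called under 0.05. The SE was derived from the F statistic, and 95% intervals use the residual degrees of freedom of the fit. Exon lengths, GC content and overlaps came from GENCODE M21 on GRCm38, and promoters from RefSeq. The edgeR fit was run on counts simulated with the levels and spread of these same libraries, which checks the code and not the calls. PCR copies are not independent molecules, so counting limits are lower bounds of the error.

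Replicates of a group were no copies of each other (chi-square 18.7 and 19.8 times its degrees of freedom). The 10 members and the 12 other lists (180 distinct genes with the members, 178 in the table) were chosen with earlier results of these data known. Named are all members, the 3 genes with the smallest p in each other list and the 5 genes nearest Scg2. A result for 1 gene that this rule names is not reported here. Every other gene given with values (other convertases and markers, Ptprn2, Adm, Rest, Egr1, Nr4a1 and Arc) was added after its values were seen. Alternatives were RLE or library totals for scaling, no filter or 1 CPM in 2 libraries, DESeq2 1.42.0, limma-voom (limma 3.58.1), the replicate number as a block, a length and GC trend removed from each library, and each library left out.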

Additional observations from a re-analysis of the deposited data

How the results depend on the processing

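Over the 12 alternatives Scg2 and Cpe kept direction and call in all, Scg3 in 11 (lost without EF 2), and Chga, Chgb, Vgf and Pcsk2 (11 alternatives, since the filter of 1 CPM removed it) kept their direction without a call. The number of all genes called higher went from 546 to 1138 with library totals and 915 with no filter, and with 1 library left out it ran from 217 (without EF 1) to 790 (without noEF 2). The number called lower went from 712 to 1203 with no filter and ran from 337 to 1065 with the same libraries left out. Scg5, at -0.0022, changed sign with library totals (0.0856), limma-voom (0.0277), the replicate block (0.0217) and the length and GC trend removed (0.19), and from -0.29 to 0.35 with 1 library left out. With 1 library left out, low markers also changed sign: P2ry12 from -1.70 to 0.23, Rgs5 from -0.39 to 0.10, Aqp1 from -6.49 to 0.76 and Pomc from -0.27 to 1.02, and the cause was not tested. The correlation of deviations from the group mean between EF 1 and noEF 1 was -0.0898. With 2 libraries per group it is a single value and cannot decide whether the replicate numbers pair the samples. The replicate block gave 410 higher and 568 lower genes, the same 3 members, and no call for Ctsl and Tpst1 (edgeR adjusted p = 0.085 and 0.077), while Rab3d gained one (edgeR adjusted p = 0.0383). With no filter 8 named genes gained a call (Cadps, Fos, Ina, Nefm, Pam, Pcsk1n, Rab3d and Syt1) and 0 lost it. Depth limits Pcsk1 and Pcsk2, at 0 and 23 to 27 counts, and DESeq2 gave Pcsk2 no adjusted p.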
